A study of Mus musculus with 6 samples.

Results

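Collagens, the genes of the elastic fibre and the enzymes that cross-link both were followed by RNA-seq in mouse kidney (male, wild-type, C57BL/6) sampled on day 2, in 3 libraries labelled I/R and 3 labelled I/R with C9. I/R is the usual abbreviation of ischaemia and reperfusion, in which the blood supply is stopped and then restored, and C9 is chemerin-9, a short peptide taken from the carboxyl end of the chemoattractant chemerin. The comparison asked how transcript levels differed when chemerin-9 was added, and no library without I/R was part of it. The age of the mice, the dose, and whether each library came from its own mouse are not given in the labels, so p-values here reflect only how far the libraries of a group spread, and part of that spread could be technical. The members were chosen by gene symbol: every collagen chain, lysyl oxidase, lysyl hydroxylase and fibulin with a row in the count table, together with named fibrillins, proteoglycans and matricellular glycoproteins. They came to 45 of 25189 gene symbols, 28 of them collagen chains and 17 others. The treated columns of the table carry the letters IC, taken here to stand for I/R plus C9. The labels of the treated libraries name them by the letter S instead, as columns of another table, so the labels do not bear that reading out, and every statement on chemerin-9 rests on it.

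Collagens are trimers of chains that wind into a triple helix. Fibrillar collagens such as types I, III and V build the cables of the interstitial matrix, type IV collagen forms the sheet-like network of basement membranes, and the remaining types bind fibrils to their surroundings, form short networks or span the cell membrane. Lysyl hydroxylases (Plod genes) modify lysines of the chains inside the endoplasmic reticulum, and lysyl oxidases (Lox and Loxl genes) oxidise lysines outside the cell, which then form covalent bonds in collagen and elastin. Elastic fibres are laid down on microfibrils of fibrillin with the help of fibulins. In the kidney, deposition of interstitial fibrillar collagen is the hallmark of fibrosis, while the glomerular filter depends on a type IV network that holds the Col4a3, Col4a4 and Col4a5 chains.

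The 6 libraries held between 11217252 and 16938301 counts, and 20611 to 21171 genes had a count. Each library has a batch value of its own, so batch and group cannot be told apart. The third I/R library stood somewhat apart: over genes its chi-square per degree of freedom against the other I/R libraries was 6.16 and 5.62, where those 2 gave 1.81 between them, and pairs across the groups gave 27.1 to 40.6. Markers of the nephron were low for a sample labelled kidney. Of 18 listed, 10 had a row, their median in a library was 1.73 to 2.27 CPM (counts scaled to a common library size), and their summed level was 83.8 to 85.4 CPM in I/R and 65.7 to 77.6 CPM under chemerin-9. The highest were Pax8, Aqp1 and Podxl, at means of 37.5, 17.9 and 15.1 CPM over the 6 libraries. Of 6 tested, Pax8 was called lower and Podxl higher. The tubule gene Cdh16, with 8 counts in all, was at 0 in the 3 libraries under chemerin-9. The collecting-duct gene Aqp2 was at 0 in 2 of 6 libraries. The 11 fibroblast and mural markers with a row summed to 1646 to 1724 CPM in I/R and 1129 to 1182 CPM under chemerin-9, with 2 called higher (Pdgfrb, Prrx1) and 3 called lower (Vim, Acta2, Gli1). Most of that sum was Vim, at a mean of 1366 CPM in I/R and 853 CPM under chemerin-9. The 5 endothelial markers summed to 5.56 to 6.49 CPM and 10.2 to 12.4 CPM, and the 4 leukocyte markers to 4.37 to 6.02 CPM and 4.36 to 6.57 CPM. Most of the endothelial sum was Flt1, the only tested marker of its list, at a mean of 4.81 CPM in I/R and 9.25 CPM under chemerin-9. The 3 red-cell markers with a row summed to 1.64 to 3.68 CPM and 2.00 to 3.17 CPM, with Hbb-bs at 0 in all 6 libraries. The 10 cell-division markers summed to 4277 to 4431 CPM and 4128 to 4221 CPM, high for a sample labelled kidney. Among them Mki67 had a mean of 994 CPM and Top2a of 1755 CPM over the 6 libraries. The label was kept, statements on kidney rest on it, and the cell make-up of the samples was not tested.

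All members together summed to 7340 to 7488 CPM in the I/R libraries and 7083 to 7230 CPM in the libraries under chemerin-9. Sums here use TMM-adjusted library sizes, so they are not shares of the raw counts. They were not computed on plain library totals, which as size factors moved the median log2 change of all tested genes from -0.0037 to 0.065. A shift of that size could change the direction of small group differences in these sums. No direction is therefore read from the sum of all members. In this bulk RNA, fewer cells of a type and less RNA per cell cannot be told apart. Summed over genes, the fibrillar collagens stood at 2506 ± 27.5 CPM (SD, n = 3) in I/R and 2337 ± 1.40 CPM under chemerin-9, and the groups did not overlap. Basement-membrane collagens summed to 422 ± 13.4 CPM and 418 ± 2.47 CPM. On these TMM-adjusted library sizes the difference lay within the spread of the I/R libraries. The minor collagens, meaning every other type, summed to 139.7 ± 4.17 CPM in I/R and 194 ± 3.32 CPM under chemerin-9. Per kilobase of transcript, the scale on which genes can be compared with each other, fibrillar chains made up 81.5% to 82.3% of the collagen level in I/R and 79.5% to 79.6% under chemerin-9, and minor chains 4.68% to 4.86% and 6.82% to 6.90%. The basement-membrane share was 13.0% to 13.6% and 13.5% to 13.7%. All shares are of the 28 collagens with a row, which leave out 3 of 8 listed basement-membrane collagens, so they are not shares of all collagen transcripts. Among the chains with a row, the minor portion was larger in each library under chemerin-9 than in any I/R library.

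**Figure D1:**
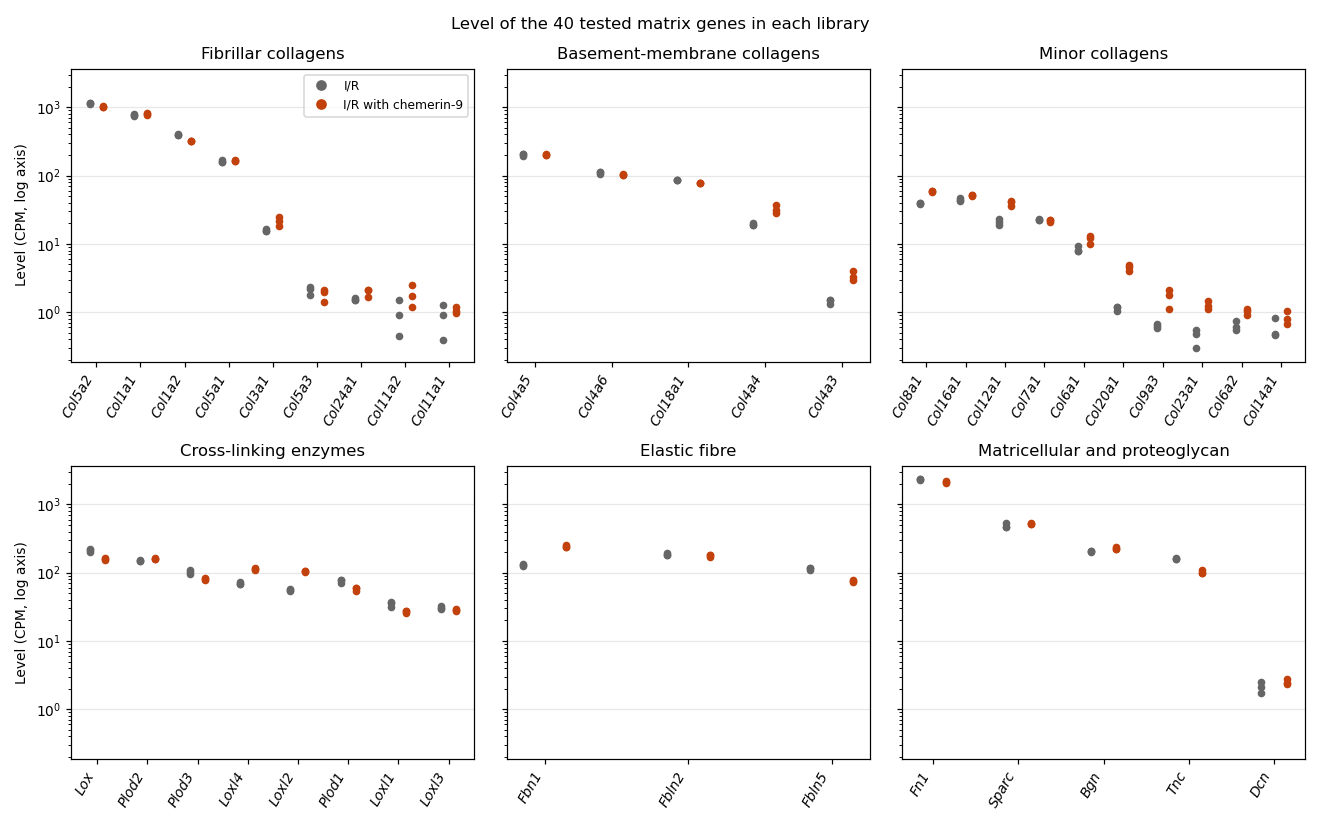
Level of each of the 40 tested members in CPM (log axis, not per length), with 1 point for each library, I/R and I/R with chemerin-9 in separate colours, and 1 panel for each role with genes in order of level. Fn1 lies highest, at 2087 to 2354 CPM, and Col3a1 lies below Col1a1, Col1a2, Col5a1 and Col5a2.

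Of the 45 members, 40 had enough counts to be tested. A gene was called when its adjusted p was under 0.05 in edgeR's quasi-likelihood test, with Benjamini-Hochberg adjustment over all 14184 genes tested. Changes are given as the log2 of I/R with chemerin-9 over I/R, with the standard error (SE). With chemerin-9, 15 members were higher and 10 were lower, 62.5% of those tested, where 51.7% of all tested genes were called, 25.6% higher and 26.1% lower. The 2 groups did not overlap in 28 of the 40, against 58.5% of all tested genes, and 11 members were called with a change of at least 1.5-fold, against 15.9% of all tested genes. With so many genes called, a call on its own did not set a member apart from the rest of the table.

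The calls are set side by side for the collagen classes, whose difference was not itself tested. Among 9 tested fibrillar chains 1 was higher and 2 were lower, with a median log2 change of 0.05. Of 5 basement-membrane chains 2 were higher and 1 was lower, with a median of -0.03. Of 10 tested minor chains 7 were higher and none was lower by edgeR at either an adjusted or an unadjusted p under 0.05, nor was any lower by DESeq2 or limma-voom, and the median was 0.63. The median over all tested genes was -0.0037. Among the minor chains, Col9a3, Col23a1 and Col6a2 passed the filter on low counts only through the libraries under chemerin-9 and so had to lean upward. Without those 3 the minor class held 5 higher chains. The median of 0.63 includes those 3, each of which lies above it, so that median leans upward too. Of 8 cross-linking enzymes 3 were higher and 4 lower, of 3 elastic fibre genes 1 each way, and of 5 tested matricellular and proteoglycan genes 1 was higher and 2 were lower. With plain library totals as size factors, which moved the median of all genes to 0.065, the split was 2 higher and 2 lower for fibrillar chains, 2 higher and 0 lower for basement-membrane chains, and 2 higher and 1 lower for matricellular and proteoglycan genes. Col2a1, Col6a4, Col8a2, Col10a1 and Postn had too few counts to be tested.

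**Figure D2:**
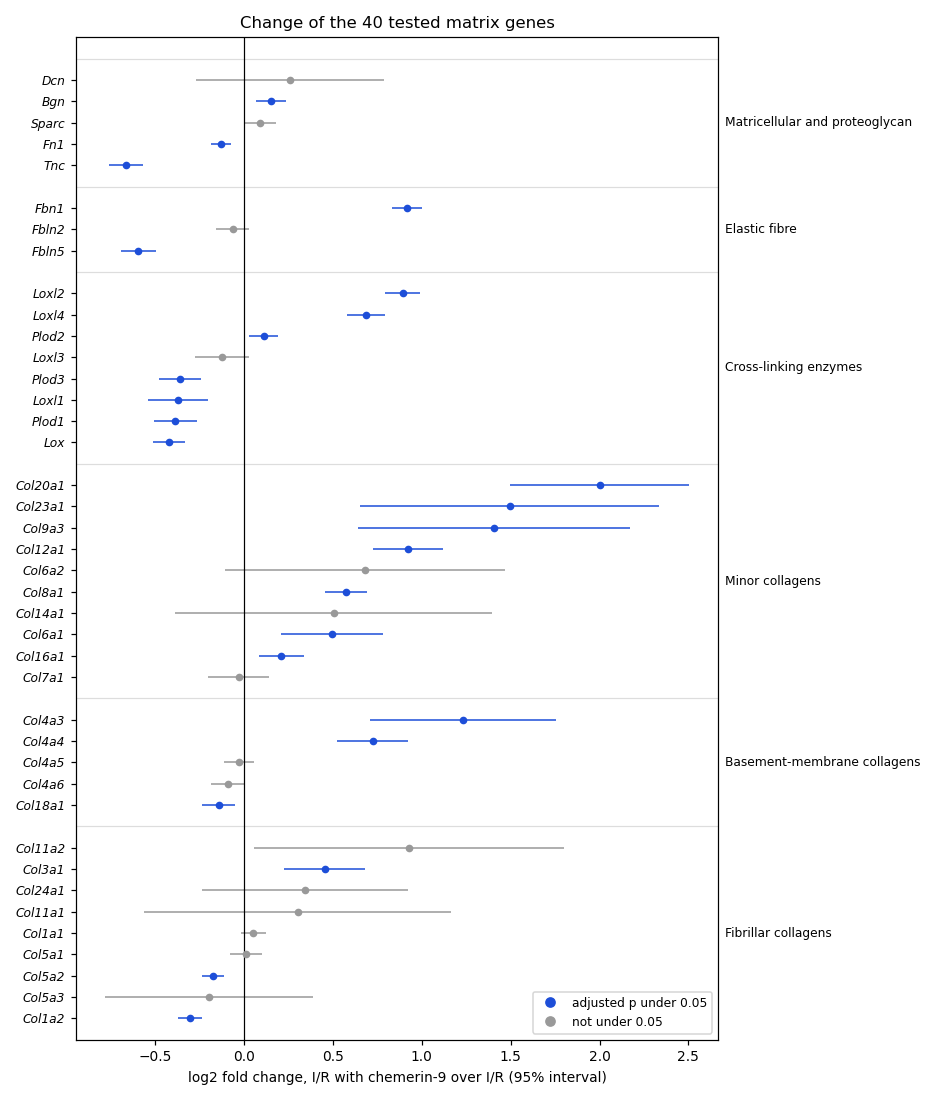
Log2 change of each tested member (I/R with chemerin-9 over I/R) with its 95% confidence interval from edgeR, grouped by role, with called genes in blue. Minor collagens lie above 0 apart from Col7a1, which is at -0.03 and above 0 with plain library totals, while fibrillar and cross-linking genes lie on both sides.

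To show the sequence that lies before the start of the members that moved most, the stretch free of exons was taken from the RefSeq window of 250 bases before and 50 after the start (GRCm38.p6), which was found for 31 members. One gene is shown for each role, the called member with the largest change whose window holds enough such bases, with the basement-membrane gene given further on. Capitals mark matches on either strand to TATAAA, the letters of the TATA box, to CCAAT, those of the CCAAT box, or to GGGCGG, those of the GC box, which reads as CCGCCC on the opposite strand, and no marked match overlaps another.
Col3a1 (fibrillar, chr1:45311288-45311537, plus strand): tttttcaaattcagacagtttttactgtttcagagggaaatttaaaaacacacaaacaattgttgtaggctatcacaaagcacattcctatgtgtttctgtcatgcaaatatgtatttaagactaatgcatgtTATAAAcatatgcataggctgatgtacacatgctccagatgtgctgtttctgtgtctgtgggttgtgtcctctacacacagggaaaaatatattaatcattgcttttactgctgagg
Col23a1 (minor, chr11:51289670-51289919, plus strand): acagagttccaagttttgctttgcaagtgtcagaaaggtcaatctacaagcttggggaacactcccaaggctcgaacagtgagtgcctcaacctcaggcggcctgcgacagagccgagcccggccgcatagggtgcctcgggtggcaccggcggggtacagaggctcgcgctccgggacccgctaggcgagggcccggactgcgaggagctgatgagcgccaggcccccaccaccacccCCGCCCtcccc
Loxl4 (cross-linking, chr19:42612814-42613056, minus strand): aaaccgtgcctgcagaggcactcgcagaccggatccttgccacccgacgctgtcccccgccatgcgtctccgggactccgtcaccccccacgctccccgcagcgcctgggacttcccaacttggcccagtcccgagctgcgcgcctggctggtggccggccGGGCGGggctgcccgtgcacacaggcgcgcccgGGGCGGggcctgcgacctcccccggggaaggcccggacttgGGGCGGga
Fbln5 (elastic fibre, chr12:101819120-101819369, minus strand): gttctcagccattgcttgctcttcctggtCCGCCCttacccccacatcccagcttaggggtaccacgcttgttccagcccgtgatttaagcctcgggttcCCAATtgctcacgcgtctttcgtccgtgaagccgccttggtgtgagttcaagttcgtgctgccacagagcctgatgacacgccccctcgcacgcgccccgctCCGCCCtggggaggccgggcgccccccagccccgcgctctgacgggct
Tnc (matricellular, chr4:64047016-64047265, minus strand): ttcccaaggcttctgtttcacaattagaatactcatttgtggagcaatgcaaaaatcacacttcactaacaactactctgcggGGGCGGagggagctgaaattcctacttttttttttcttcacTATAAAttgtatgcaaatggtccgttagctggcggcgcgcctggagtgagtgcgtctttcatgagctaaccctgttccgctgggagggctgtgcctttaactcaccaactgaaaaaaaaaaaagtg
The stretches differ in base composition, from 35.2% GC before Col3a1 and 44.8% before Tnc to 65.2% before Fbln5, 66.0% before Col23a1 and 75.7% before Loxl4. TATAAA stood in the windows of 6 of the 31 members and in 13.6% of the 32851 windows of the table, CCAAT in 11 members and 37.4% of windows, and GGGCGG in 22 members and 35.7% of windows. The members with TATAAA were Col3a1, Tnc, Col11a2, Plod1, Col10a1 and Postn, of which Col3a1 was called higher and Tnc and Plod1 lower. These are matches of letters only, and no binding was measured.

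Among the fibrillar collagens, the partner chains of type I gave different calls. Col1a1 (chromosome 11, 94936224 to 94953042, GRCm38) encodes the chain that is present in 2 copies in the common type I trimer. It measured 790.5, 739 and 784 CPM in the I/R libraries and 805, 818 and 778 CPM under chemerin-9. The groups overlapped, and the log2 change of 0.05 (95% confidence interval -0.02 to 0.12) was not called (adjusted p = 0.20). Col1a2 (chromosome 6, 4504814 to 4541544), the partner chain, measured 404, 395 and 395 CPM in I/R and 322, 326 and 319.7 CPM under chemerin-9. All treated libraries lay below all I/R libraries, and Col1a2 fell by 0.30 on the log2 scale (SE 0.03, adjusted p = 1.5e-06). The interval of Col1a1 does not reach a fall of that size.

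Type V collagen, which is built into type I fibrils and limits their diameter, split in the same manner. Col5a2 (chromosome 1, 45374321 to 45503282) measured 1162, 1168 and 1128 CPM in I/R and 1019, 1002 and 1044 CPM under chemerin-9, with no overlap, and fell by 0.17 (SE 0.03, adjusted p = 1.2e-04). Col5a1 measured 158, 171 and 158 CPM and then 161, 168 and 162 CPM, an overlap, with a log2 change of 0.01 (95% interval -0.08 to 0.10, adjusted p = 0.83). Per kilobase, Col5a2 was the most abundant of the collagen chains with a row, at 174 in I/R and 154 under chemerin-9, ahead of Col1a1 at 130.0 and 135, Col1a2 at 74.4 and 60.3 and Col5a1 at 19.3 in I/R. An excess of Col5a2 over Col5a1 was thus present in both groups.

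Col3a1, the single chain of type III collagen, is usually among the most abundant collagen transcripts of a stromal tissue, but here it measured 16.4, 15.3 and 15.6 CPM in I/R and 21.8, 18.6 and 24.4 CPM under chemerin-9. That is 2.84 and 3.88 CPM per kilobase, far below the type I chains. It was the called fibrillar gene that rose, by 0.45 (SE 0.11, adjusted p = 0.0023), and the groups did not overlap. The annotated gene Gm47302 overlaps exons of Col3a1 on the same strand, so reads of Col3a1 could have been divided. The low fibrillar chains were not called. Col11a2 measured 1.49, 0.446 and 0.910 CPM in I/R and 2.53, 1.179 and 1.75 CPM under chemerin-9 (log2 change 0.93, adjusted p = 0.070), an overlap. Its change ranged from 0.60 to 1.35 as each library was left out, and it was called in 5 of 15 alternatives: without the first I/R library (1.35, adjusted p = 0.023), without the second treated library (0.049), with the replicate number as a block (0.026), with no filter on low counts (0.035) and after removal of the GC and length trend (0.041). For Col11a1, Col24a1 and Col5a3 the log2 changes were 0.30, 0.34 and -0.19 with adjusted p of 0.56, 0.31 and 0.58, and Col2a1 had 44 counts over all 6 libraries.

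Since the chains of one trimer are needed in fixed proportion, the ratio of their levels was computed within each library, where size factors cancel. Both genes of a pair are read from the same library, and the type IV pairs were chosen after their values were seen. Col1a1 over Col1a2 was 1.95, 1.87 and 1.98 in I/R and 2.50, 2.51 and 2.43 under chemerin-9. Every treated library exceeded every I/R library, a log2 difference of 0.36 between groups (exact two-sided permutation p = 0.1, 0.125 after Benjamini-Hochberg adjustment over 5 ratios). With 3 libraries against 3, 0.1 is the smallest p this test can give. Col5a1 over Col5a2 was 0.136, 0.146 and 0.140 in I/R and 0.158, 0.167 and 0.155 under chemerin-9, a log2 difference of 0.19, again with no overlap (exact permutation p = 0.1). In both pairs the second-named chain was called lower and the first was not called.

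**Figure D3:**
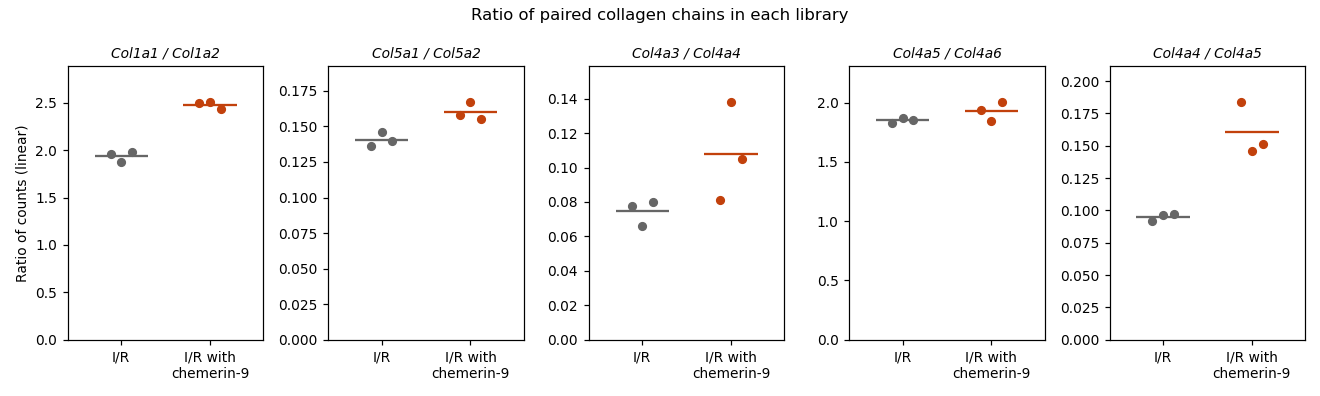
Ratio of counts between chains, with 1 point for each library and a line at the group mean, for the type I, V and IV pairs (linear axes from 0). Col1a1 over Col1a2 lies at 1.87 to 1.98 in I/R and at 2.43 to 2.51 under chemerin-9, while Col4a5 over Col4a6 overlaps between the groups.

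Of 8 listed basement-membrane collagens 5 had a row, and the other 3 were not analysed here. They included 4 chains of type IV, which fall into pairs that share a starting region. Col4a5 and Col4a6 lie head to head on the X chromosome, starting at 141475385 and 141474076, with 1308 bases between. Col4a5 had the highest level of the 5, at 209, 211 and 196 CPM in I/R and 199, 197 and 206 CPM under chemerin-9. The groups overlapped (log2 change -0.03, 95% interval -0.11 to 0.06, adjusted p = 0.57). Col4a6, a chain of the network of Bowman's capsule and some tubules, measured 114, 113 and 105 CPM and then 103, 107 and 103 CPM, with a log2 change of -0.09 (adjusted p = 0.12). Without the third I/R library the change was -0.12 and passed the test (adjusted p = 0.025). Their ratio was 1.83 to 1.87 in I/R and 1.85 to 2.00 under chemerin-9 (exact permutation p = 0.3, also after adjustment).

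Col4a3 and Col4a4, which join Col4a5 in the mature glomerular filter and whose mutations cause Alport syndrome, lie head to head on chromosome 1, with starts at 82586921 and 82586849 and only 71 bases between. That shared stretch is printed for Col4a4 by the rule given above for each role. It is 69.0% GC and holds none of the letters searched.
Col4a4 (chr1:82586850-82586920, minus strand): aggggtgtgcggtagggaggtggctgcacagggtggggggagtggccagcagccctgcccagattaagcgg
Col4a4 measured 19.1, 20.3 and 19.0 CPM in I/R and 36.6, 28.8 and 31.3 CPM under chemerin-9, with no overlap. It rose 1.65-fold (log2 change 0.72, SE 0.09, adjusted p = 1.2e-05). Col4a3 was far lower, at 1.49, 1.34 and 1.52 CPM in I/R and 2.96, 3.98 and 3.29 CPM under chemerin-9, from 197 counts in all, and rose by 1.23 (SE 0.24, adjusted p = 6.3e-04). Col4a3 over Col4a4 was 0.0659 to 0.0799 in I/R and 0.0810 to 0.138 under chemerin-9, a log2 difference of 0.51 that was 0.31 without the second treated library. Col4a4 over Col4a5 was 0.0914, 0.0963 and 0.0971 in I/R and 0.184, 0.146 and 0.152 under chemerin-9 (log2 difference 0.75, exact permutation p = 0.1). The podocyte marker Podxl was also higher under chemerin-9, at a log2 change of 0.49, and the part of podocytes in the change was not tested. Col18a1, whose carboxyl end is released as endostatin, measured 84.9, 86.3 and 85.2 CPM and then 77.4, 78.4 and 76.7 CPM, a log2 change of -0.14 (adjusted p = 0.014). That call was lost with plain library totals as size factors (adjusted p = 0.19), with DESeq2 (0.050) and with the trend in GC content and length removed (0.47).

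The minor collagens gave the largest changes of any class. Col20a1 (chromosome 2, 180986535 to 181018363), a fibril-associated collagen, measured 1.17, 1.19 and 1.03 CPM in I/R and 4.01, 4.57 and 4.97 CPM under chemerin-9. It rose by 2.00 (SE 0.24, adjusted p = 5.2e-06), from 227 counts in all 6 libraries. The annotated gene BX649560.1 overlaps exons of Col20a1 on the same strand, so reads of the 2 genes may not have been separated. Col9a3, a chain of a fibril-associated collagen best known from cartilage, measured 0.626, 0.594 and 0.668 CPM and then 1.13, 1.77 and 2.10 CPM, and rose by 1.41 (SE 0.36, adjusted p = 0.0041, 94 counts). Its exons overlap Tcfl5 on the opposite strand, and the strand setting used in counting is not stated in the labels. Col23a1, a membrane-spanning collagen, measured 0.548, 0.297 and 0.485 CPM and then 1.22, 1.11 and 1.47 CPM, and rose by 1.49 (SE 0.39, adjusted p = 0.0051, 69 counts). None of the 3 overlapped between groups, where 58.5% of all tested genes did not overlap, and all are scarce transcripts. Col9a3 and Col23a1 passed the filter on low counts only through the libraries under chemerin-9, so their rise and lack of overlap were favoured by that filter.

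At higher levels, Col12a1, which lies on the surface of type I fibrils, measured 20.98, 23.3 and 18.8 CPM in I/R and 43.1, 40.4 and 36.0 CPM under chemerin-9. It rose by 0.92 (SE 0.09, adjusted p = 9.0e-07) with every treated library above every I/R library. Col8a1, a short-chain collagen of vessel walls and mesangium, measured 39.9, 39.2 and 38.7 CPM and then 59.3, 56.97 and 59.3 CPM, and rose by 0.58 (SE 0.06, adjusted p = 6.8e-07). Its partner Col8a2 had 43 counts and was not tested. Col6a1, a chain of the beaded microfibrils around cells, measured 7.75, 9.36 and 7.77 CPM and then 12.9, 12.2 and 10.1 CPM, and rose by 0.49 (adjusted p = 0.0064). Its partner Col6a2 was at a mean of 0.633 CPM in I/R and 1.02 CPM under chemerin-9 (log2 change 0.68, adjusted p = 0.14). Col16a1, the minor collagen with the highest CPM in I/R but below Col8a1 under chemerin-9, measured 46.3, 43.5 and 42.8 CPM and then 49.5, 52.5 and 51.2 CPM, and rose by 0.21 (adjusted p = 0.0075). Col7a1, the collagen of anchoring fibrils, measured 23.0, 22.1 and 22.2 CPM and then 22.4, 22.6 and 21.1 CPM (log2 change -0.03, adjusted p = 0.78), and Col14a1 had a log2 change of 0.51 (adjusted p = 0.33). In I/R the 7 chains that rose included none of the abundant collagens: the fibrillar sum was 2506 CPM and the minor sum 139.7 CPM.

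The cross-linking enzymes separated within their own family. Lox, the founding lysyl oxidase and the most abundant of the 5, measured 215, 221 and 202 CPM in I/R and 155, 164 and 157 CPM under chemerin-9. It fell by 0.42 (SE 0.04, adjusted p = 9.7e-07). Loxl1, the paralog most closely tied to elastic fibres, measured 36.1, 31.4 and 36.9 CPM and then 27.6, 27.6 and 25.7 CPM, and fell by 0.37 (SE 0.08, adjusted p = 0.0011). Loxl2 (chromosome 14, 69609068 to 69695834) acts on the type IV network, and measured 56.4, 54.8 and 57.8 CPM in I/R and 107, 104 and 104 CPM under chemerin-9. It rose 1.86-fold (log2 change 0.89, SE 0.05, adjusted p = 1.1e-09), and a near-identical copy, Gm21451, is annotated elsewhere in the genome. Loxl4 (chromosome 19, 42593982 to 42612813) measured 74.0, 67.5 and 67.7 CPM and then 115, 108 and 113 CPM, and rose 1.61-fold (log2 change 0.69, SE 0.05, adjusted p = 3.4e-08). Loxl3 measured 32.1, 30.6 and 29.6 CPM and then 27.1, 28.4 and 29.0 CPM, with a log2 change of -0.12 (adjusted p = 0.16). Its exons overlap those of Htra2 on the opposite strand, which was lower at 41.8 against 55.0 CPM. Lox and Loxl1 carry propeptides, while Loxl2, Loxl3 and Loxl4 share scavenger-receptor domains; 2 of the latter were higher and both of the former lower. Per kilobase, Lox stood at 44.9 in I/R and 33.5 under chemerin-9, Loxl4 at 18.7 and 30.0, and Loxl2 at 10.6 and 19.7, so Lox and Loxl4 lay closer together under chemerin-9.

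The 3 lysyl hydroxylases also went both ways. Plod1, which hydroxylates helical lysines, measured 77.4, 71.4 and 77.8 CPM in I/R and 59.4, 59.8 and 54.6 CPM under chemerin-9, and fell by 0.38 (SE 0.06, adjusted p = 4.2e-05). Plod3, which also attaches sugars to hydroxylysine, measured 103, 96.4 and 111 CPM and then 84.3, 80.0 and 78.7 CPM, and fell by 0.36 (SE 0.05, adjusted p = 6.7e-05). Its exons overlap Znhit1 on the opposite strand. Plod2, the enzyme of telopeptide lysines whose activity is linked to the stable cross-links of fibrosis, measured 148, 154 and 149 CPM and then 166, 161 and 161 CPM, a rise of 0.11 (SE 0.04, adjusted p = 0.022). No overlap was seen in any of the 8 cross-linking genes, where 58.5% of all tested genes had none, yet the call of Plod2 was lost without the first I/R library (adjusted p = 0.088), without the first or the third treated library (0.091 and 0.0504), with no filter on low counts (0.052) and after removal of the GC and length trend (0.48). The summed level of the 8 enzymes was 734 ± 6.85 CPM in I/R and 732 ± 9.27 CPM under chemerin-9 (SD, n = 3). On these TMM-adjusted library sizes the total differed by less than the spread, while 7 of the 8 were called, against 51.7% of all tested genes. Plain library totals moved the median log2 change of all genes to 0.065, and the sum was not computed on them. A flat total is therefore not claimed beyond the TMM-adjusted library sizes.

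**Figure D4:**
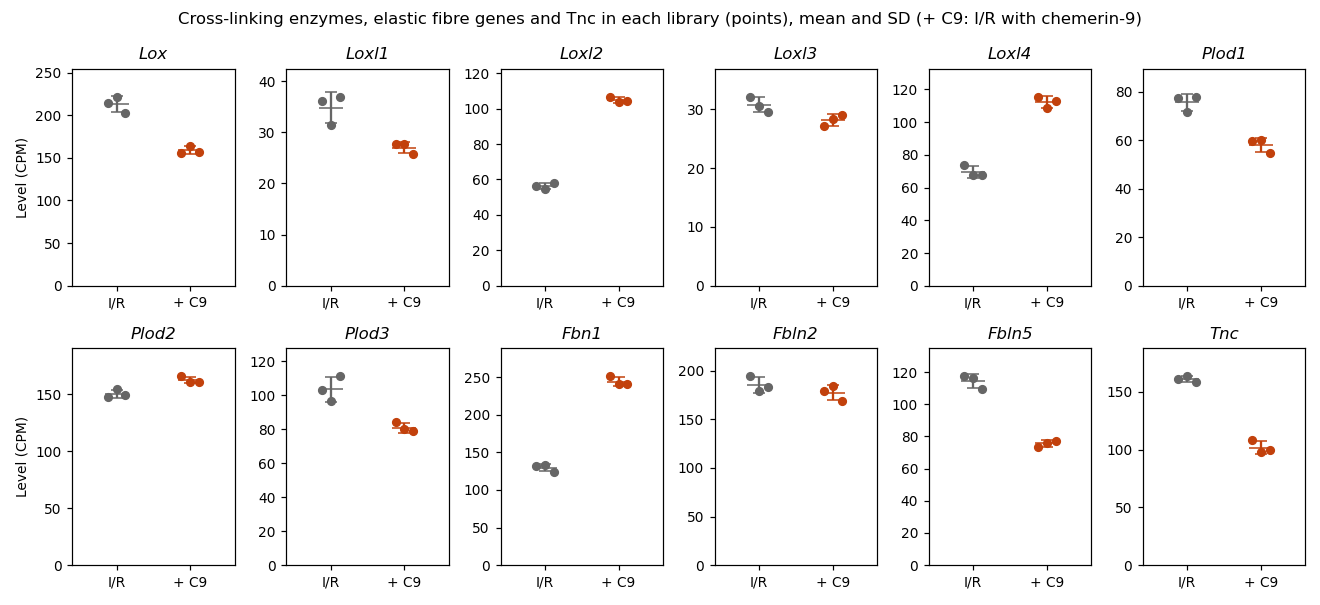
CPM of the lysyl oxidases, lysyl hydroxylases, elastic fibre genes and Tnc in each library (points), with the group mean and SD as bars, on linear axes from 0. Lox, Loxl1, Plod1, Plod3, Fbln5 and Tnc are lower under chemerin-9, and Loxl2, Loxl4 and Fbn1 are higher, with no overlap between groups.

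The elastic fibre genes with a row were Fbn1, Fbln5 and Fbln2. Fbn1 (chromosome 2, 125300594 to 125507993) encodes fibrillin-1, the backbone of microfibrils. It measured 131, 133 and 124 CPM in I/R and 251, 240.4 and 241 CPM under chemerin-9, and rose 1.89-fold (log2 change 0.92, SE 0.04, adjusted p = 1.7e-10). The annotated gene Gm9913 overlaps exons of Fbn1 on the opposite strand, and the strand setting used in counting is not stated in the labels. Fbln5 (chromosome 12, 101746565 to 101819055), which tethers elastin and Loxl1 to the microfibril, measured 117, 116 and 109 CPM and then 73.5, 76.2 and 77.4 CPM, and fell by 0.59 (SE 0.05, adjusted p = 8.0e-08). Fbln2 measured 194, 179 and 183 CPM and then 179, 184 and 169 CPM, with overlapping groups and a log2 change of -0.06 (95% interval -0.16 to 0.03, adjusted p = 0.24). With chemerin-9 the transcript of the microfibril backbone was higher and that of an assembly factor lower, and the transcript of Loxl1 fell beside that of Fbln5.

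Among the matricellular glycoproteins and proteoglycans, Fn1 (chromosome 1, 71585520 to 71653200) encodes fibronectin, on which collagen fibrils are assembled, and was the most abundant member. It measured 2354, 2339 and 2271 CPM in I/R and 2166, 2112 and 2087 CPM under chemerin-9, and fell by 0.13 (SE 0.03, adjusted p = 6.8e-04). That call was lost with plain library totals as size factors (adjusted p = 0.068). Tnc (chromosome 4, 63959785 to 64047015), which encodes tenascin-C, a glycoprotein made at sites of injury, gave the largest fall of any member, from 161, 164 and 159 CPM to 108, 97.9 and 99.5 CPM (log2 change -0.66, SE 0.04, adjusted p = 1.5e-08). Sparc, a collagen-binding secreted protein, measured 474, 472 and 525 CPM in I/R and 520.2, 533 and 518 CPM under chemerin-9, where the third I/R library lies among the treated ones (log2 change 0.09, adjusted p = 0.063). Without that library the change of Sparc was 0.14 and passed the test (adjusted p = 4.7e-05), as it also did with upper-quartile size factors (0.035), plain library totals (0.0030), no filter on low counts (0.029) and the trend in GC content and length taken out (0.0021). The biglycan gene Bgn measured 205, 198 and 205 CPM and then 236, 220.5 and 219.6 CPM, and rose by 0.15 (SE 0.04, adjusted p = 0.0044). The decorin gene Dcn, another small leucine-rich proteoglycan, was low, at 2.11, 2.53 and 1.76 CPM and then 2.35, 2.80 and 2.45 CPM (adjusted p = 0.40). Postn, which encodes periostin, lay between 0.0783 and 1.03 CPM and was not tested. Fibroblast and mural markers moved with these genes in part: Vim had a log2 change of -0.68 and Acta2 of -0.49, while Pdgfrb had 0.49 and Prrx1 0.31, and their part in the changes of matrix genes was not tested.

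The genes that fold, modify and export procollagen were read as a list of 34, of which 29 had a row and all 29 were tested. In it 3 genes were higher and 15 were lower, with a median log2 change of -0.18, and with plain library totals 7 were higher and 13 lower. The called share was 62.1%, where 51.7% of all tested genes were called, 25.6% higher and 26.1% lower. Serpinh1, the collagen-specific chaperone of the endoplasmic reticulum, was at 1366 ± 79.4 CPM in I/R and 724 ± 23.7 CPM under chemerin-9 (SD, n = 3) and fell by 0.92 (adjusted p = 1.5e-10). The COPII coat genes Sec23a and Sec24d, needed to carry bulky procollagen, fell by 0.83 and 0.62 (adjusted p = 3.1e-09 and 1.7e-08), and Mia3, which encodes the receptor TANGO1 that loads procollagen, fell by 0.43 (adjusted p = 1.7e-07). The 3 genes that were higher were Mia2, at a log2 change of 0.20, Pcolce, which enhances removal of the procollagen tail, at 0.16, and Mrc2, an endocytic receptor for collagen, at 0.20. Without the second I/R library Mrc2 was at 0.16 and not called (adjusted p = 0.054). The prolyl isomerase Ppib was called lower, but it measured 65.5 CPM in the third I/R library and 41.2 CPM in each of the other 2, and without that library its log2 change went from -0.45 to -0.18 (adjusted p = 0.051). The call of Ppib was also lost with DESeq2 (adjusted p = 0.14) and without the first treated library (0.087).

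Other genes of the microfibril and its partners were read from a list of 22, of which 16 had a row and 14 were tested, with 5 higher and 3 lower and a median log2 change of 0.09. The called share of 57.1% was near the 51.7% of all tested genes. Ltbp2, a fibrillin-binding protein that does not bind latent TGF-beta, was at 29.5 ± 1.71 CPM in I/R and 58.6 ± 1.74 CPM under chemerin-9 and rose by 0.99 (adjusted p = 1.0e-08). Ltbp4, a partner of Fbln5 in laying down elastin, was at 109 ± 4.90 and 66.6 ± 4.90 CPM and fell by 0.71 (adjusted p = 1.0e-07). The fibulin family gene Efemp1 was higher at a log2 change of 0.48, as were Mfap3 at 0.36 and Mfap1a at 0.52. Mfap1a carries a microfibril name but encodes a spliceosome component, and it has a 99.3% identical copy, Mfap1b. Adamtsl5 and Emilin1, both microfibril-associated, were lower at log2 changes of -0.59 and -0.52.

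**Figure D5:**
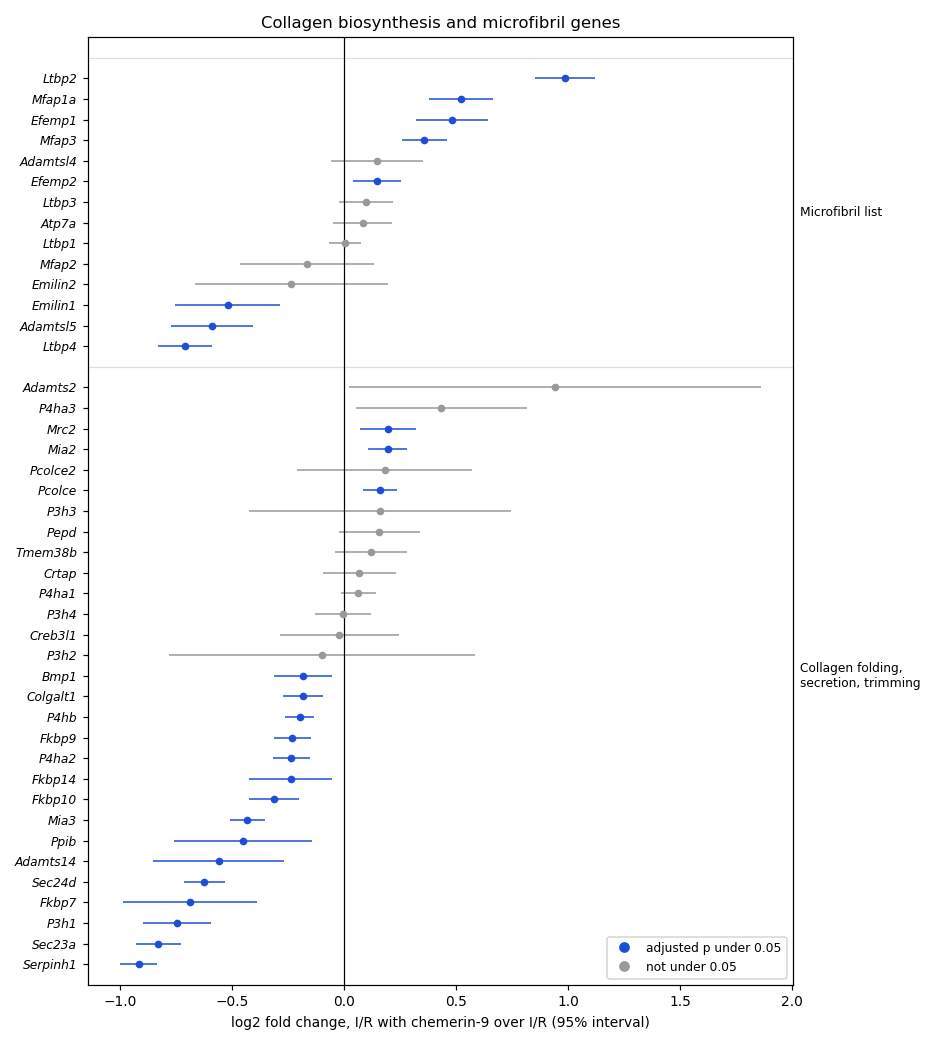
Log2 change (I/R with chemerin-9 over I/R) with its 95% confidence interval for the genes of the microfibril (upper block) and of collagen folding, export and trimming (lower block), with called genes in blue. Serpinh1 lies lowest at -0.92, and Ltbp2 at 0.99 and Ltbp4 at -0.71 are the ends of the upper block.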

How the data were processed

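RNA-seq gene expression was measured in 6 kidney libraries, 3 of I/R and 3 of I/R with chemerin-9, grouped by their titles, which read C9 throughout while the treatment field of the treated libraries reads C9, C10 and C11 in turn. The authors deposited raw counts per gene with no normalization, as the whole numbers with unequal totals show. Per the submitters' processing notes, HISAT2, HTSeq, DESeq 1.18.1 and mm10 were used. The library kit is stranded per the labels' protocols, and no source used here states the strand setting of HTSeq. Beside the counts stand the authors' deposited p-value, FDR, log2 fold change and linear fold ratio, which were read as a check only. By the authors' deposited table, 14 members were higher and 9 lower at an FDR under 0.05, and 23 of the 25 members called here were among them (the others were Col18a1 and Plod2).

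From 25216 rows, 27 repeated ones were removed. The test was edgeR 4.0.16 under R 4.3.3 (TMM, filterByExpr by group, quasi-likelihood fit on group, Benjamini-Hochberg adjustment over 14184 genes). CPM values use TMM-adjusted library sizes. Coordinates and transcript lengths are from GENCODE M21, whose starts matched 97.54% of the genes found. Annotated copies of at least 95% identity were searched with BLAST 2.17.0. The alternatives were other size factors, DESeq2 1.42.0, limma-voom (limma 3.58.1), other filters, a replicate block, each library left out and, added after seeing the data, removal of the trend in GC content and length. Scripts were tested on simulated data. The members, the lists and the tests were chosen with earlier results of these data known. Values in every library are given for the 8 members with the highest mean CPM, the 8 largest called rises and 8 largest called falls without overlap between groups, and partner chains with Col3a1; for other members they were added after their values were seen. From the procollagen and microfibril lists up to 4 called genes with the smallest p in each direction are named. Ppib and the cell type markers were named after their values were seen. Genes with no row in the table were not analysed.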

Additional observations from a re-analysis of the deposited data

How the results depend on the processing

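In each of 15 alternatives the 25 called members kept their direction, while Col4a5, Col5a1, Col7a1, Col11a1 and Fbln2, all uncalled, changed sign in at least 1. The call or its absence held throughout for 33 of the 40 tested members, among them 22 of those called; the exceptions were Col18a1, Plod2, Fn1, Col1a1, Sparc, Col11a2 and Col4a6. Removing the trend in GC content and length, added after seeing the data, called 5 fibrillar collagens in place of 3 (3 higher and 2 lower), with Col1a1 at a log2 change of 0.13 (edgeR adjusted p = 1.5e-04); the cause was not tested. Plain library totals gave 17 members higher and 8 lower, and Col1a1 at 0.12 (adjusted p = 0.0070). Leaving out each library in turn gave 14 to 17 members higher and 10 to 11 lower. With the replicate number as a block 16 members were higher and 10 lower, against 15 and 10 without it. Deviations of same-numbered libraries correlated at 0.102, -0.052 and 0.042, so the numbers were not taken to pair the samples. Depth limits the members with under 100 counts in all, Col23a1 and Col9a3 among those called.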
